A study of Mus musculus with 6 samples.

Results

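The genes described here were 9 genes of the blood-brain barrier endothelium, taken by their mouse symbols from the 21006 Ensembl genes measured. They were the tight junction genes Cldn5, Ocln and Tjp1, the transport genes Slc2a1, Abcb1a and Mfsd2a, and the endothelial adhesion and signalling genes Pecam1, Cdh5 and Flt1. The samples came from the prefrontal cortex of wild type male C57BL/6 mice that were 18 months old by their age label, although the sample titles carry a code with another number. The PND group (postoperative neurocognitive disorder, n = 3) had isoflurane anesthesia with an exploratory laparotomy, which opens the abdomen for inspection, while CON mice (n = 3) were neither anesthetized nor operated on before testing. Mice of both groups went through behavioral tests ending with the Barnes maze, and were then anesthetized with isoflurane and perfused with saline before the cortex was taken, so isoflurane shortly before sampling was common to both. The operated mice also had lidocaine cream and povidone iodine put on the wound, at the end of the operation and on the days after it. PND thus joined anesthesia, operation and wound care, and their effects cannot be told apart in this design. The maze was run on the days after the operation, so the cortex was taken days after it. The comparison asked whether barrier endothelial genes differed in the cortex after the operation.

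The blood-brain barrier is formed by endothelial cells that line the brain capillaries and that are sealed to each other by tight junctions. These cells let few molecules pass between or through them, carry glucose and certain lipids inward by transport proteins, and pump many drugs back into the blood. Pericytes, astrocyte end feet and Wnt signals from neural cells keep the endothelium in this state. The samples were pieces of whole cortex, in which endothelial cells are a minority, and in such bulk samples fewer endothelial cells and less RNA per cell cannot be told apart.

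The values were FPKM, that is fragment counts divided by exon length and by library depth, and can therefore be compared between genes. Gene positions below are those of GENCODE M21 on mouse GRCm38. Cldn5 (ENSMUSG00000041378), on chromosome 16 from 18776847 to 18778262, consisted of a single exon with 1416 bp. Ocln (ENSMUSG00000021638) lay on chromosome 13 from 100496507 to 100552718, and Tjp1 (ENSMUSG00000030516) on chromosome 7 from 65296165 to 65527781. Slc2a1 (ENSMUSG00000028645) and Mfsd2a (ENSMUSG00000028655) were both on chromosome 4, from 119108711 to 119137983 and from 122946850 to 122961188. Abcb1a (ENSMUSG00000040584) and Flt1 (ENSMUSG00000029648) were both on chromosome 5, from 8660077 to 8748575 and from 147561604 to 147726011. Pecam1 (ENSMUSG00000020717) lay on chromosome 11 from 106654217 to 106750628, and Cdh5 (ENSMUSG00000031871) on chromosome 8 from 104101625 to 104144511. All 9 were protein-coding, with merged exon lengths from 1416 bp for Cldn5 to 13504 bp for Flt1. A share of 11.4% of the 75-base windows of the Abcb1a transcript occurred also in transcripts of other genes, chiefly its close paralog Abcb1b, so the value of Abcb1a is uncertain to at least that extent. The other 8 transcripts held no such window.

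The GC content of the transcripts ranged from 42.0% for Ocln to 60.5% for Cldn5. The genes highest in GC content, Cldn5, Mfsd2a and Slc2a1, varied most between the samples. A stretch of coding exon is shown for the genes at both ends and for Slc2a1, whose levels were the most uneven. Each stretch has 120 bases, was taken from inside 1 exon where its GC content was closest to that of the transcript, and is written with G and C in capitals. That of Cldn5 is chr16:18777005-18777124 on the plus strand in exon 1 of 1, that of Slc2a1 is chr4:119132125-119132244 on the plus strand in exon 3 of 10, and that of Ocln is chr13:100539459-100539578 on the minus strand in exon 3 of 9.
Cldn5: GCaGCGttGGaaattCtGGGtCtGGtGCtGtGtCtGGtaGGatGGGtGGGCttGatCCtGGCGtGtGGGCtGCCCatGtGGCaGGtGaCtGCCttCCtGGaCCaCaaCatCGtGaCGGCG
Slc2a1: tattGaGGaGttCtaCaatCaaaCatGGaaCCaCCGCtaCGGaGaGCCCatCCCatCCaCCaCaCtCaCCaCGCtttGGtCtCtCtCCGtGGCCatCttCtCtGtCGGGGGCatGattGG
Ocln: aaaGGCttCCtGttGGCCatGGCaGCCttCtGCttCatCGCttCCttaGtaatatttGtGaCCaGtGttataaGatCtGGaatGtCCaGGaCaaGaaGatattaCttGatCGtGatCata
The stretch of Cldn5 held 60.8% G and C, that of Slc2a1 54.2% and that of Ocln 41.7%.

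The number of fragments behind the values was estimated from the steps of low FPKM values. The estimated depth lay between 7211178 and 9398332 fragments per sample. The sum of all FPKM was 215640 to 240447 per sample, 1496 to 2289 genes were listed at 0, and no pair of samples held identical values. CON replicate 1 stood apart from the others for GC-rich genes: it was the lowest of the 6 samples for 44.4% of the 7603 genes with a GC content of at least 50%, and for 12.1% of the 10465 genes below 50%. In CON replicate 2 the same GC-rich genes were the highest in 40.9% of cases.

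All 9 genes were measured in all 6 samples, and none of them passed the test between PND and CON. Averaged over the 6 samples, Tjp1 had 28.2 FPKM, Abcb1a 7.56, Flt1 7.1, Slc2a1 4.54, Cdh5 2.63, Pecam1 1.85, Cldn5 1.5, Mfsd2a 1.47 and Ocln 1.24. Only Tjp1 was separate from its neighbor in this order, since its lowest sample (26.8 FPKM) was above the highest sample of Abcb1a (9.55 FPKM). For each other pair of neighbors the ranges over the 6 samples overlapped. The coefficient of variation over the 6 samples was 4.38% for Flt1 and 5.59% for Tjp1, and 54.2%, 52.9% and 51.0% for Slc2a1, Mfsd2a and Cldn5.

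**Figure D1:**
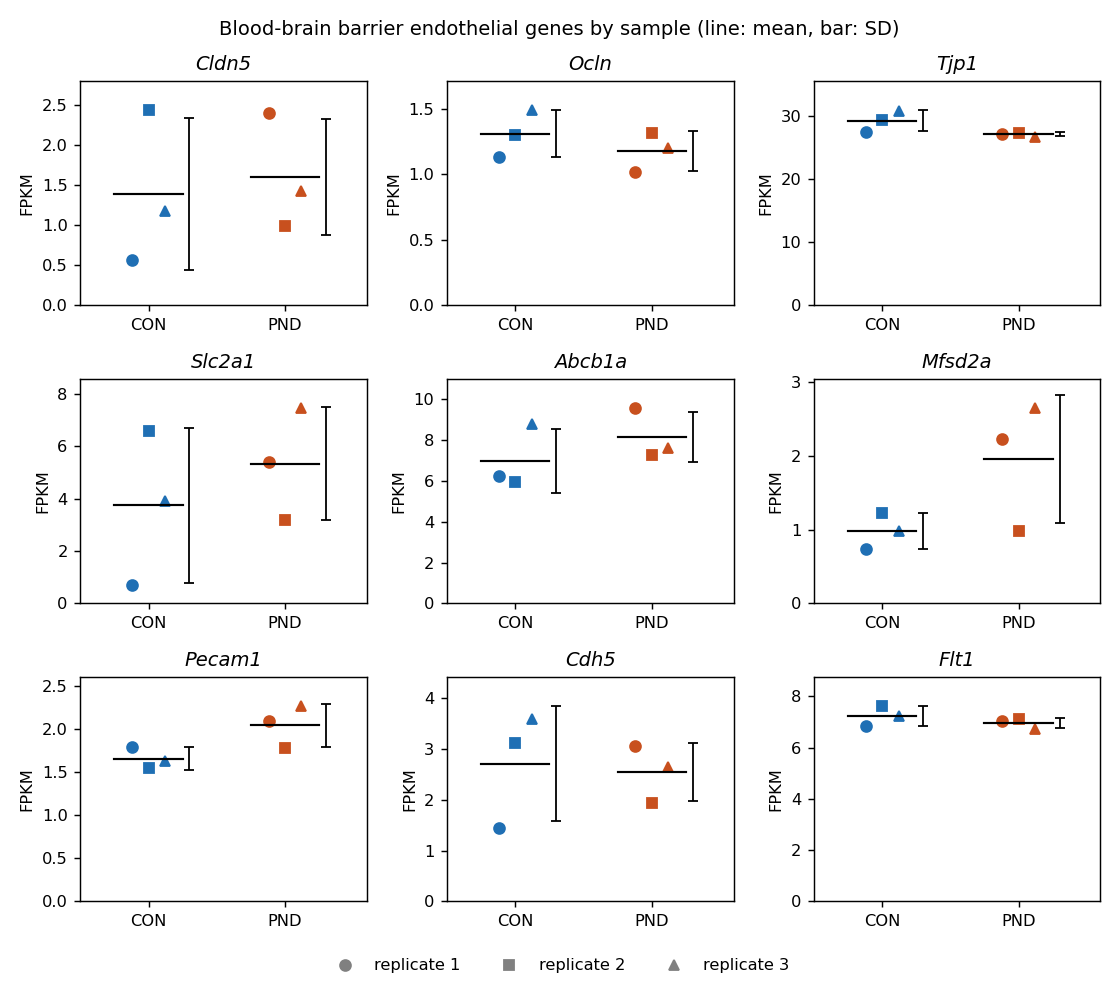
FPKM of the 9 barrier genes (vertical axes, 1 panel per gene, starting at 0) in the CON and PND samples, with the marker shape for the replicate, a line for the group mean and a bar for the SD (n = 3). The groups overlapped for each gene except Tjp1, and CON replicate 1 was the lowest sample for Cldn5, Slc2a1, Mfsd2a and Cdh5.

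None of the tight junction genes passed the test, although the groups of Tjp1 did not overlap. Cldn5 encodes claudin-5, the dominant claudin of brain capillaries that seals the gap between endothelial cells. Its FPKM was 2.4, 0.984 and 1.43 in PND replicates 1 to 3, and 0.566, 2.43 and 1.18 in CON replicates 1 to 3. The lowest and the highest of the 6 samples were both CON samples, which differed by 4.29-fold. The means were 1.6 ± 0.723 in PND and 1.39 ± 0.95 in CON (SD, n = 3 each). On the log2(FPKM + 0.1) scale, used for every fold change here, the difference was 0.31 (SE 0.52, 95% interval −0.91 to 1.54; limma, unadjusted p = 0.565). Cldn5 rested on an estimated 6 to 30 fragments per sample, and 6 fragments carry a counting error of 40.8%. Its difference was −0.16 without CON replicate 1, −0.00 without PND replicate 1 and 0.8 without CON replicate 2, so its direction depended on single samples.

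Ocln encodes occludin, a membrane protein of the tight junction. It had 1.02, 1.32 and 1.2 FPKM in PND and 1.13, 1.3 and 1.49 FPKM in CON. The groups overlapped over most of their range. The difference on the log2 scale was −0.14 (SE 0.23, 95% interval −0.67 to 0.4; limma, unadjusted p = 0.567).

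Tjp1 encodes ZO-1, the scaffold protein that ties claudins and occludin to the actin cytoskeleton, and it is made by many cell types besides endothelium. Its FPKM was 27.2, 27.4 and 26.8 in PND, and 27.5, 29.4 and 30.9 in CON. All PND samples lay below all CON samples, although PND replicate 2 and CON replicate 1 were nearly equal. The means were 27.2 ± 0.33 in PND and 29.3 ± 1.67 in CON (SD, n = 3 each). Between the groups the log2 difference was −0.11 (SE 0.1, 95% interval −0.33 to 0.12; limma, unadjusted p = 0.307). With an estimated 1607 to 1967 fragments per sample this was the most deeply counted of the 9 genes, and its interval leaves out a change of 1 on the log2 scale in either direction. Tjp1 was the only one of the 9 genes whose groups did not overlap in the direction of lower values in PND (11.1%), against a background of 3.88% of all 18185 genes tested. None of the 9 had groups apart in the direction of higher values, against 3.78% of all genes.

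The transport genes all had higher means in PND, Slc2a1 and Mfsd2a by more than any other of the 9 genes, and none of them passed the test. Slc2a1 encodes GLUT1, the glucose carrier of the barrier, which astrocytes make as well. Its FPKM was 5.39, 3.17 and 7.45 in PND, and 0.716, 6.6 and 3.91 in CON. CON replicate 1 was far below every other sample, and the remaining 5 samples were mixed between the groups. The means were 5.34 ± 2.14 in PND and 3.74 ± 2.95 in CON (SD, n = 3 each), and the highest CON sample was 9.23-fold above the lowest. PND minus CON was 0.88 on the log2 scale (SE 0.74, 95% interval −0.85 to 2.6; limma, unadjusted p = 0.271). Without CON replicate 1 the log2 difference was −0.01, so the whole difference rested on that sample. Slc2a1 was 2.0 lower on the log2 scale in CON replicate 1 than in the next lowest sample. A gap this large below the others was found in CON replicate 1 for 22 of 12387 genes averaging 1 FPKM or more (0.178%), and in each of the other 5 samples for 8 to 14 genes.

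Mfsd2a encodes a carrier of lysophospholipids with omega-3 fatty acids, and it also holds down vesicular passage through the endothelium. Its FPKM was 2.23, 0.988 and 2.65 in PND, and 0.744, 1.23 and 0.982 in CON. PND replicates 1 and 3 were above every CON sample, and PND replicate 2 lay within the CON range. The means were 1.96 ± 0.866 in PND and 0.986 ± 0.244 in CON (SD, n = 3 each). The log2 difference was 0.84 (SE 0.39, 95% interval −0.07 to 1.75; limma, unadjusted p = 0.0649), the smallest p among the 9 genes. It rested on an estimated 13 to 56 fragments per sample. Without PND replicate 2 the log2 difference was 1.25 (limma, unadjusted p = 0.00474), which would pass the cut-off of the study. Without PND replicate 1 it was 0.7 and without PND replicate 3 it was 0.58 (limma, unadjusted p = 0.179 and 0.212), and with the replicate block the unadjusted p in limma was 0.106. Its unadjusted p in limma also fell below 0.05 when the samples were scaled or corrected otherwise, at 0.0366 with quantile normalization, 0.0388 with median centring and 0.025 with a correction of each sample for GC content. The GC correction brought 794 of all 18185 genes below 0.05, against 569 without it.

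Abcb1a encodes P-glycoprotein, the efflux pump that returns many drugs and lipophilic compounds to the blood. It had 9.55, 7.27 and 7.63 FPKM in PND and 6.23, 5.92 and 8.77 FPKM in CON. CON replicate 3 lay above PND replicates 2 and 3, so the groups overlapped. In log2 terms the groups differed by 0.23 (SE 0.19, 95% interval −0.22 to 0.69; limma, unadjusted p = 0.263). Its 255 to 464 estimated fragments per sample made it the most deeply counted of the transport genes. Its shared windows with Abcb1b and its exon overlap with Gm42686 limit this.

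The adhesion and signalling genes, which mark endothelium in general, did not pass the test either. Pecam1 encodes CD31, an adhesion molecule at the contacts between endothelial cells. Its FPKM was 2.1, 1.78 and 2.27 in PND, and 1.8, 1.55 and 1.63 in CON. Only PND replicate 2 and CON replicate 1 overlapped, and only just. The means were 2.05 ± 0.25 in PND and 1.66 ± 0.13 in CON (SD, n = 3 each), and the log2 difference was 0.29 (SE 0.19, 95% interval −0.17 to 0.74). In limma its unadjusted p was 0.182.

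Cdh5 encodes VE-cadherin, the cadherin of endothelial adherens junctions. It had 3.06, 1.94 and 2.65 FPKM in PND and 1.44, 3.11 and 3.59 FPKM in CON. The PND samples lay inside the CON range, whose lower end was again CON replicate 1. On the log2 scale the difference was −0.02 (SE 0.36, 95% interval −0.85 to 0.82; limma, unadjusted p = 0.967).

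Flt1 encodes the VEGF receptor VEGFR1, which binds VEGF-A, VEGF-B and placental growth factor, also as a soluble form that sequesters them. Its FPKM was 7.03, 7.12 and 6.75 in PND, and 6.84, 7.62 and 7.22 in CON. The 6 samples were nearly level. The means were 6.97 ± 0.196 in PND and 7.23 ± 0.39 in CON (SD, n = 3 each), and the log2 difference was −0.05 (SE 0.12, 95% interval −0.34 to 0.23). In limma its unadjusted p was 0.684. The gene values did not separate the membrane-bound from the soluble form.

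The 9 genes were then read against all genes tested. Higher values in PND were found for 5 of the 9 (55.6%) and lower values for 4, and 52.4% of all 18185 genes tested were higher. Their median log2 difference was 0.23, against 0.01 over all genes. No gene of the 9 had an unadjusted p below 0.05 in limma, where 1.73% of all genes did so in the direction of higher values in PND and 1.4% in that of lower values. None passed the study's cut-off either, an absolute log2 difference above 1 with an unadjusted p below 0.05, which 0.841% of all genes passed upward and 0.484% downward. After Benjamini-Hochberg adjustment over all genes, every adjusted p of the 9 genes was at least 0.999. A test by voom in limma, on fragments estimated from the FPKM, also gave no p below 0.05 for any of the 9. The 95% intervals of Ocln, Tjp1, Abcb1a, Pecam1, Cdh5 and Flt1 left out a change of 1 on the log2 scale in either direction, while those of Cldn5, Slc2a1 and Mfsd2a did not.

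**Figure D2:**
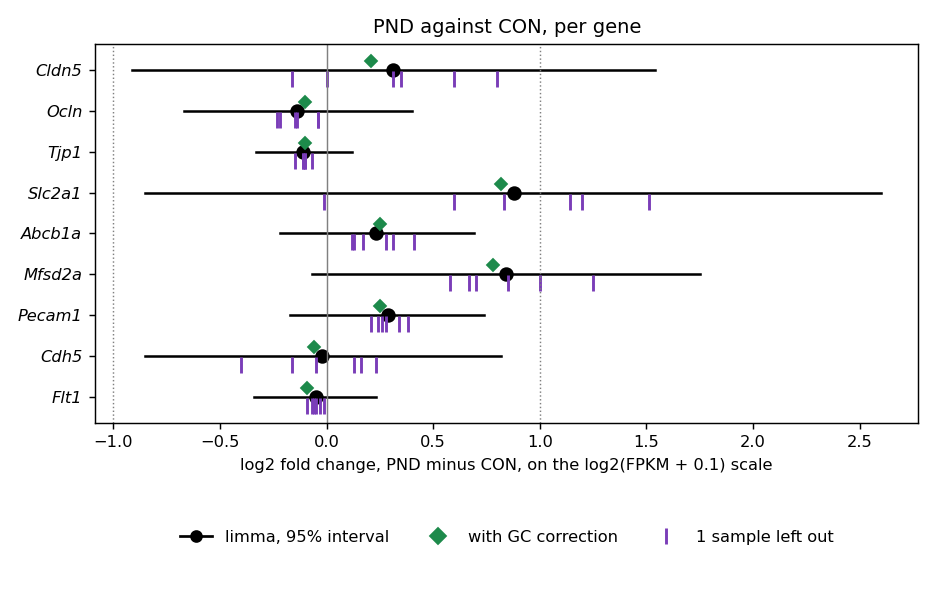
Log2 difference between PND and CON for each of the 9 genes (horizontal axis, log2(FPKM + 0.1) scale), with the limma estimate and 95% interval in black, the estimate after GC correction as a diamond and the estimates with 1 sample left out as ticks. Every interval covers 0, and the ticks of Slc2a1 run from −0.01 to 1.51 and those of Cldn5 from −0.16 to 0.8.

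The 3 genes with the highest GC content were Cldn5, Mfsd2a (54.2%) and Slc2a1 (54.0%), and they also had the 3 largest coefficients of variation. This did not hold further down the range, since Flt1, with a GC content of 50.5%, had the smallest. CON replicate 1 was the lowest sample for 4 of the 9 genes, and all 4 were among the 6 with a GC content of at least 50% (66.7%). For each of the 9, the median deviation of all genes averaging 1 FPKM or more with a GC content within 2 percentage points was set beside its own. In this comparison a deviation is the log2 value of a sample minus the mean of the 6 samples. For Cldn5 the own deviations were 0.79, −0.41 and 0.09 in PND and −1.11, 0.81 and −0.17 in CON. Those of its 536 neighbors in GC content were 0.12, −0.34 and 0.4 in PND and −0.63, 0.53 and −0.04 in CON. The sign was the same in all 6 samples for Cldn5, in 5 of the 6 for Slc2a1, Mfsd2a, Pecam1 and Cdh5, in 3 for Ocln, and in 2 for Tjp1, Abcb1a and Flt1. For Slc2a1, the deviation in CON replicate 1 was −2.22 and that of its 1988 neighbors was −0.28, so that its neighbors were low in the same sample by a much smaller amount.

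After each sample was corrected for its dependence on GC content, the range of deviations over the samples went from 1.92 to 1.21 for Cldn5, from 1.71 to 1.19 for Mfsd2a, from 3.21 to 2.71 for Slc2a1 and from 1.27 to 1.1 for Cdh5. For Flt1 and Tjp1 it went the other way, from 0.17 to 0.26 and from 0.2 to 0.22. The corrected deviations of Mfsd2a were 0.63, −0.2 and 0.74 in PND and −0.45, −0.36 and −0.36 in CON. All PND samples then lay above all CON samples, with PND replicate 2 nearest to them. How many of all genes had separate groups after this correction was not counted, so this separation has no background to be read against. Whether GC-dependent recovery of fragments made the differences between samples was not tested.

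**Figure D3:**
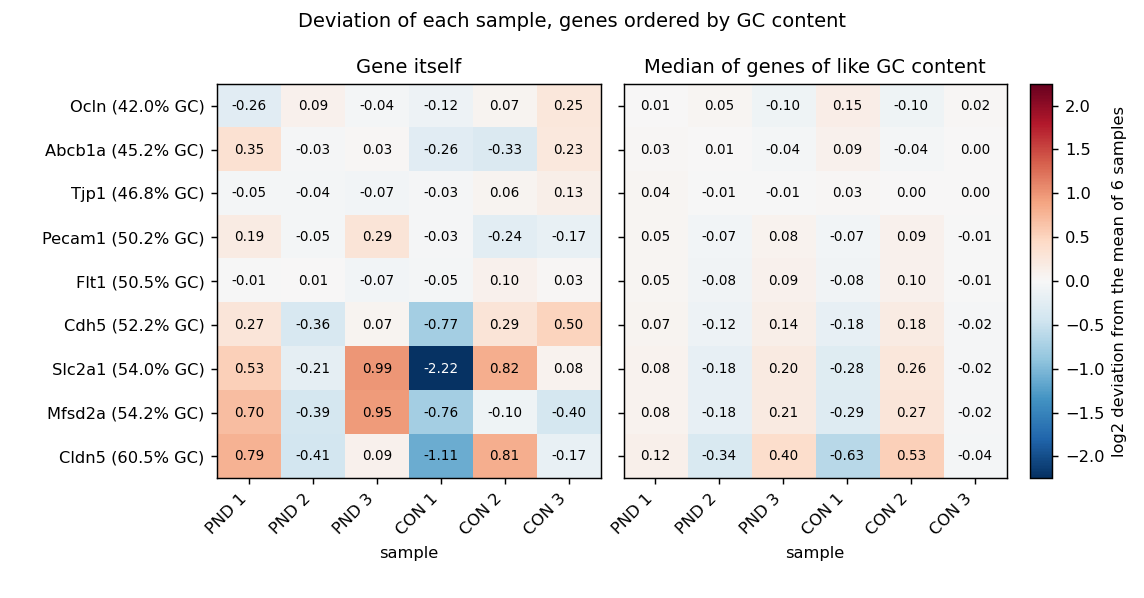
Log2 deviation of each sample from the mean of the 6 samples (color and printed value) for the 9 genes in order of GC content, on the left for the gene itself and on the right as the median of all genes of like GC content. The strongest color of each panel lies in CON replicate 1, at Slc2a1 (−2.22) on the left and at Cldn5 (−0.63) on the right.

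The barrier genes were also expressed relative to general endothelial genes, as the log2 difference between each gene and the mean of Pecam1, Cdh5 and Flt1 in the same sample. For Mfsd2a this ratio was −0.66, −1.47 and −0.36 in PND and −1.69, −1.37 and −1.73 in CON. PND replicate 2 lay within the CON range here as well. The ratio of Slc2a1 was 0.58, 0.12 and 1.09 in PND and −1.74, 0.96 and 0.16 in CON, where CON replicate 1 again lay far below every other sample. The group difference of the ratio was 0.77 for Mfsd2a and 0.8 for Slc2a1, close to the differences of the genes themselves. As for the gene itself, the difference for Slc2a1 rested on CON replicate 1. The group difference of the ratio was 0.24 for Cldn5, 0.16 for Abcb1a, −0.18 for Tjp1 and −0.21 for Ocln. These ratios are a description and were not tested.

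A wider set of 101 genes in 8 lists gave the surroundings of the 9 genes, and 100 of them were in the files and 96 were tested. Among these 96, 55 were higher (57.3%, against 52.4% of all genes tested) and 41 lower in PND, with a median log2 difference of 0.08. An unadjusted p below 0.05 was reached by 3 genes that were higher (3.12%, against 1.73% of all genes) and 2 that were lower (2.08%, against 1.4%). Of these, 1 higher and 2 lower genes passed the study's cut-off, which 0.841% and 0.484% of all genes did, and no adjusted p was below 0.999. The groups did not overlap for 5 genes in each direction (5.21% each), against 3.78% of all genes for higher and 3.88% for lower values.

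The partners of the tight junction, such as Lsr, Marveld2, F11r and Jam2, were evenly divided, with 6 of 12 higher and 6 lower and a median of 0.05. None had an unadjusted p below 0.05. The smallest p belonged to Jam2, a junctional adhesion molecule, with 7.65, 6.74 and 7.09 FPKM in PND and 9.22, 7.88 and 8.58 FPKM in CON. Its groups did not overlap, and the log2 difference was −0.25 (SE 0.13; limma, unadjusted p = 0.0866, and 0.046 with GC correction).

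Transporters and receptors of the barrier were likewise divided, with 7 of 14 tested higher and 7 lower and a median of 0.02. The efflux pump Abcg2 differed by −0.00 (SE 0.23), the amino acid carrier Slc7a5 by 0.52 (SE 0.34) and the transferrin receptor Tfrc by 0.03 (SE 0.18) on the log2 scale, none with a p below 0.05. Alpl, the tissue-nonspecific alkaline phosphatase of the capillary wall, had 0.544, 0.387 and 0.419 FPKM in PND and 0.554, 1.18 and 0.669 FPKM in CON. Its groups only just failed to overlap, and the log2 difference was −0.66 (SE 0.34; limma, unadjusted p = 0.0935). Its unadjusted p in limma was 0.0481 with quantile normalization, 0.0229 with GC correction and 0.0398 with replicate block and GC correction together.

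In the Wnt and β-catenin pathway, which induces and maintains the barrier, 11 of 18 genes were higher and 7 lower, with a median of 0.07. The ligands Wnt7a and Wnt7b differed by 0.1 (SE 0.33) and 0.37 (SE 0.62), the receptor Fzd4 by −0.24 (SE 0.23) and the target Axin2 by −0.26 (SE 0.33) on the log2 scale, none with a p below 0.05. Foxf2, a transcription factor of brain endothelial cells and pericytes, passed the study's cut-off. It had 0.813, 0.642 and 0.721 FPKM in PND and 0.395, 0.364 and 0.118 FPKM in CON. All PND samples lay above all CON samples, on an estimated 2 to 17 fragments each. The log2 difference was 1.16 (SE 0.4; limma, unadjusted p = 0.0209). Without PND replicate 1 or PND replicate 3 the limma p was 0.0675 or 0.054, and with GC correction it was 0.0547. The difference was short of the cut-off when the pseudocount was 1 (0.42) and without CON replicate 3 (0.78).

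In the VEGF, angiopoietin and Notch pathways, 6 of 16 tested genes were higher and 10 lower, with a median of −0.04. Vegfa differed by −0.11 (SE 0.18) and its main endothelial receptor Kdr by −0.06 (SE 0.18) on the log2 scale, neither with a p below 0.05. Pgf, placental growth factor and a ligand of the Flt1 protein, had 0.572, 0.879 and 0.471 FPKM in PND and 1.43, 1.4 and 1.32 FPKM in CON. All PND samples were below all CON samples, with a log2 difference of −1.04 (SE 0.28; limma, unadjusted p = 0.00665). Pgf rested on an estimated 13 to 33 fragments per sample, and its p stayed below 0.05 in each of the 18 other settings tried, the highest being 0.0391 among fits on all samples and 0.0251 with 1 sample left out. Its log2 difference no longer went past 1, and the cut-off was therefore missed, when the pseudocount was 1 (−0.55), without PND replicate 1 (−0.99) and without PND replicate 3 (−0.87).

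Apln, the peptide ligand apelin, had 1.65, 1.45 and 3.11 FPKM in PND and 3.09, 5.85 and 3.66 FPKM in CON. PND replicate 3 and CON replicate 1 overlapped. The log2 difference was −1.01 (SE 0.35; limma, unadjusted p = 0.0209), and without PND replicate 1, PND replicate 2 or CON replicate 2 the p was 0.0661 to 0.0711. When the pseudocount was 1 the difference was −0.76, short of the cut-off. Tek, the angiopoietin receptor, had 1.82, 1.62 and 1.65 FPKM in PND and 2.49, 2.06 and 2.17 FPKM in CON. Its groups did not overlap, and the log2 difference was −0.38 (SE 0.18; limma, unadjusted p = 0.0776). With GC correction or without the intensity trend its unadjusted p in limma was 0.0427 or 0.0442.

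Of the genes of endothelial identity, 13 of 20 tested were higher and 7 lower, with a median of 0.18. Ly6c1, a surface protein of capillary endothelium, had 7.11, 5.99 and 4.27 FPKM in PND and 3.2, 3.35 and 3.12 FPKM in CON. All PND samples were above all CON samples, by 0.79 on the log2 scale (SE 0.21; limma, unadjusted p = 0.00568). A share of 23.2% of its 75-base windows occurred in other genes, chiefly Ly6c2, so its value is uncertain to that extent.

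Adgrl4, an adhesion receptor of endothelial cells, had 8.33, 8.86 and 7.99 FPKM in PND and 7.63, 4.88 and 6.05 FPKM in CON. Its groups did not overlap, with a log2 difference of 0.46 (SE 0.18; limma, unadjusted p = 0.0376), which was no longer below 0.05 without any of 5 of the 6 samples, CON replicate 1 being the exception. On all 6 samples its unadjusted p in limma was also above 0.05 with median centring (0.0958), with the replicate block (0.0681) and without the intensity trend (0.0626). Vwf, von Willebrand factor, had 1.0, 0.829 and 1.07 FPKM in PND and 0.559, 0.792 and 0.435 FPKM in CON. Its groups did not overlap either, and the log2 difference was 0.64 (SE 0.29; limma, unadjusted p = 0.0613). Its unadjusted p in limma was 0.0319 without the intensity trend, 0.0185 by voom and 0.0257 without CON replicate 2.

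The summed level of the 21 endothelial identity genes was 46.0, 44.0 and 43.8 FPKM in PND and 39.5, 40.9 and 37.8 FPKM in CON. Every PND sample was above every CON sample in this sum. When Ly6c1 and Adgrl4 were left out, the sums of the other 19 genes were 30.6, 29.1 and 31.5 FPKM in PND and 28.7, 32.7 and 28.6 FPKM in CON. These sums overlapped, with means of 30.4 ± 1.22 and 30.0 ± 2.33 FPKM (SD, n = 3 each), so the separation of the full sum rested on those genes. Ly6c1 and Adgrl4 were left out after their values had been seen, and the sums were not tested.

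The remaining lists held no gene with an unadjusted p below 0.05. Of 4 genes of vesicular passage, 3 were higher and 1 lower, and Plvap, which forms the diaphragms of leaky vessels and is scarce in a closed barrier, differed by −0.81 (SE 0.52) on the log2 scale. Of 4 tested genes of activated endothelium and leukocyte adhesion, 2 were higher and 2 lower, with Icam1 at 0.48 (SE 0.4) and Vcam1 at −0.22 (SE 0.18). Of 8 genes of the vascular basement membrane, 7 were higher and 1 lower, with Col4a1 at 0.32 (SE 0.4) and a median of 0.14.

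**Figure D4:**
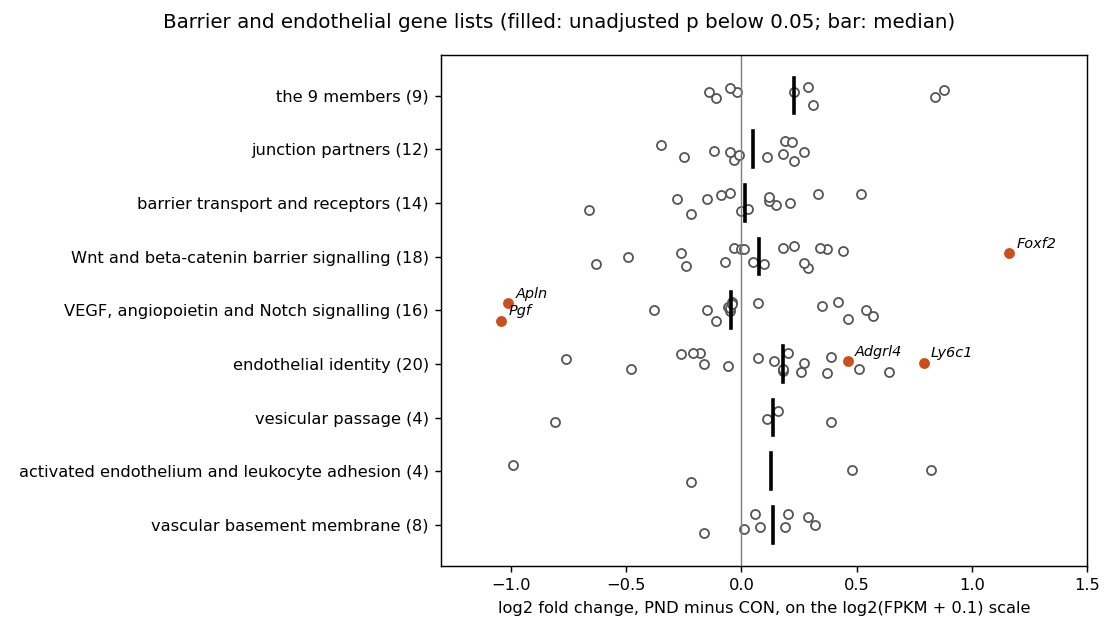
Log2 difference between PND and CON (horizontal axis) for each tested gene of the 9 barrier genes and of the 8 wider lists, with the number of genes in brackets, a bar at the median and filled points for an unadjusted p below 0.05. The medians lie between −0.04 and 0.23, and the 5 filled points are Pgf, Apln, Foxf2, Adgrl4 and Ly6c1.

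Markers of other cells were read beside these genes, and their part in the results was not tested. Markers of pericytes, the mural cells next to the endothelium, summed over 10 genes to 40.8 to 46.1 FPKM in PND and 37.1 to 51.4 FPKM in CON, from Rgs5 (27.5 to 36.5 FPKM) down to Notch3 (0.232 to 0.61 FPKM). Among them 5 were higher and 5 lower. The study's cut-off was passed upward by 1 of the 10 (Higd1b, named after its values were seen), against 0.841% of all genes. Higd1b had 0.735, 1.06 and 0.594 FPKM in PND and 0.248, 0.456 and 0 FPKM in CON. Its groups did not overlap, which held for 3.78% of all genes in this direction. Smooth muscle markers summed to 5.0 to 7.48 FPKM in PND and 3.58 to 7.12 FPKM in CON, from Acta2 (0.899 to 3.05 FPKM) down to Cnn1 (0 to 0.207 FPKM). Fibroblast markers summed to 5.01 to 9.03 FPKM in PND and 4.85 to 8.36 FPKM in CON, from Dcn (2.86 to 5.8 FPKM) down to Col3a1 (0.0353 to 0.233 FPKM). No smooth muscle or fibroblast marker had an unadjusted p below 0.05. The lowest sum of each of these 3 lists was that of CON replicate 1, the sample in which 4 of the 9 barrier genes were lowest.

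Astrocyte markers summed to 332.0 to 443.0 FPKM in PND and 289.0 to 574.0 FPKM in CON, from Slc1a2 (68.5 to 368.0 FPKM) down to Aldh1l1 (2.66 to 4.91 FPKM). The sum was lowest in CON replicate 1, where Slc1a2 was lowest, while Aqp4 (34.5 FPKM), Gja1 (63.7 FPKM) and Slc1a3 (67.9 FPKM) were highest there. Of the 8 markers, 1 was higher and 1 lower with an unadjusted p below 0.05 (12.5% each). The shares of all genes were 1.73% and 1.4%. Neuron markers summed to 726.0 to 816.0 FPKM in PND and 769.0 to 855.0 FPKM in CON, from Snap25 (419.0 to 555.0 FPKM) down to Rbfox3 (6.19 to 11.5 FPKM). The sum was highest in CON replicate 1, where Snap25 was highest, while Rbfox3 (6.19 FPKM) and Slc17a7 (23.6 FPKM) were lowest there. None of the 6 neuron markers had an unadjusted p below 0.05.

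Microglia markers summed to 17.8 to 25.1 FPKM in PND and 19.7 to 29.6 FPKM in CON, from P2ry12 (4.61 to 10.7 FPKM) down to Tmem119 (0.259 to 1.98 FPKM). Of the 5, 1 was lower with an unadjusted p below 0.05 (20.0%, against 1.4% of all genes). Markers of cortical tissue summed to 110.0 to 114.0 FPKM in PND and 117.0 to 144.0 FPKM in CON, from Neurod6 (78.2 to 104.0 FPKM) down to Emx1 (0.0986 to 0.361 FPKM). Those sums did not overlap. Of the 5 cortical markers, 2 were lower in PND with an unadjusted p below 0.05 in limma (40.0%, against 1.4% of all genes).

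Choroid plexus markers, which would show tissue from outside the cortex, summed to 3.58 to 4.16 FPKM in PND and 2.07 to 3.59 FPKM in CON, from Clic6 (0.701 to 2.14 FPKM) down to Folr1 (0 to 0.0545 FPKM). All 4 that could be tested were higher in PND, 1 of them with an unadjusted p below 0.05, while the defining marker Ttr was at most 0.207 FPKM in any sample. Red cell markers, from Hbb-bs (0 to 1.3 FPKM) down to Hba-a2 (0 to 0.216 FPKM), summed to 2.76 FPKM in PND replicate 1 and to at most 0.191 FPKM in every other sample.

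The genes whose pattern over the 6 samples was most like an average of endothelial markers were sought among 12278 other genes averaging 1 FPKM or more. The reference was the mean centered log2 profile of Cldn5, Pecam1, Cdh5 and Flt1, which was 0.31, −0.2 and 0.09 in PND and −0.49, 0.24 and 0.05 in CON. These markers did not share a pattern. In CON replicate 2 the deviation was 0.81 for Cldn5 and −0.24 for Pecam1, and that of Flt1 stayed within −0.07 to 0.1 in all samples. A gene close to the average is therefore not close to each marker. The smallest root mean square differences to it were 0.041 for Tango2, 0.043 for Got2, 0.057 for Bap1, 0.059 for Daxx and 0.061 for Smurf1 on the log2 scale. Got2, for example, had 42.4, 31.5 and 35.2 FPKM in PND and 24.2, 41.7 and 35.7 FPKM in CON, lowest in CON replicate 1 as well. The GC content of these 5 genes was 48.8% to 56.3%. All 6 points of such a profile share their libraries with every gene compared.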

How the data were processed

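Libraries depleted of ribosomal RNA were made from the prefrontal cortex of 3 PND and 3 CON mice, 1 library per animal. The authors filtered reads with Seqtk, aligned them with HISAT2, counted fragments with StringTie, scaled them by TMM and deposited FPKM. The submitters' notes name Bowtie 0.12.2 and the builds mm8 and mm9 without a role for these files. The build, annotation and use of strand for the FPKM were not given in the sources used here. Reads from overlapping or antisense genes can therefore not be told apart. Groups came from the treatment label.

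PND was compared with CON by limma 3.58.1 in R 4.3.3 (lmFit, eBayes with intensity trend) on log2(FPKM + 0.1), over 18185 genes averaging 0.1 FPKM or more, which understates changes of low genes. Benjamini-Hochberg adjustment ran over all of these genes. The study's cut-off was an absolute log2 difference above 1 with an unadjusted p below 0.05. P-values measure the spread between these animals only. The fit was tested on simulated fragments for PND against CON, in which 200 of 200 genes changed by 4-fold were recovered among 18004. There 218 unchanged genes also passed the cut-off, which 241 genes passed in the real data. The changed genes averaged 1 FPKM or more, and every gene had the same set spread between samples and no GC effect. The simulation therefore cannot tell how well smaller changes, or changes in genes as uneven as Slc2a1, would be found.

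The deposited FPKM gave no depth. Fragments were estimated from the steps of low values times GENCODE M21 exon length, and 41.2% to 44.7% of low values lay within 0.05 of a whole number, so they describe precision only. Counting errors cover counting only. Symbols were matched for 20866 of 21006 identifiers. The 75-base windows were compared over all GENCODE M21 transcripts. In the GC correction, a lowess curve (span 0.3) of the deviations from the gene means against transcript GC content was taken off each sample.

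All 9 genes were reported. Of the wider lists, genes past the cut-off were named, and beyond these the 3 higher and 3 lower genes with the smallest p, with other genes given as examples chosen after their values were seen. The result of 1 list of other cell markers is not reported here. The 9 genes, the lists and the tests were chosen with earlier results of these data known. The alternatives were 12 other settings on all samples (pseudocount, filter, scaling, GC correction, replicate block, trend, voom) and each sample left out in turn.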

Additional observations from a re-analysis of the deposited data

How the results depend on the processing

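No setting on all 6 samples turned the direction of any of the 9 genes, and 5 of the 9 were higher in PND in each of the 12 settings. The count of the 9 with an unadjusted p below 0.05 was 0 and became 1 with quantile normalization, median centring, GC correction and replicate block with GC correction. Over all 18185 genes tested, 581, 549, 794 and 645 had such a p in these settings, in that order, against 569 in the main fit. Both settings with GC correction thus brought more genes below 0.05 in general. The gene of the 9 was Mfsd2a each time, with log2 differences of 0.82, 0.82, 0.78 and 0.78 (limma, unadjusted p = 0.0366, 0.0388, 0.025 and 0.0367). Its range over all 12 settings was 0.53 to 0.89. With 1 sample left out, the count of the 9 with p below 0.05 was 0 to 1, the count past the cut-off 0 to 1 (Mfsd2a without PND replicate 2) and the count of higher genes 3 to 6, the 3 being without CON replicate 1. The log2 difference then ran from −0.16 to 0.8 for Cldn5, −0.01 to 1.51 for Slc2a1, 0.58 to 1.25 for Mfsd2a (limma, unadjusted p 0.00474 to 0.212) and −0.4 to 0.23 for Cdh5. It changed sign for Cldn5 without CON replicate 1 (−0.16) or PND replicate 1 (−0.00), for Slc2a1 without CON replicate 1 (−0.01), and for Cdh5 without PND replicate 2 (0.16), CON replicate 2 (0.13) or CON replicate 3 (0.23).

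Over all genes, 241 passed the cut-off, 25 when the pseudocount was 1, 59 among genes averaging 1 FPKM or more and 235 to 388 with 1 sample left out, the highest without CON replicate 2. The split was 153 higher and 88 lower, with quantile normalization 124 and 116, without PND replicate 1 126 and 118, without PND replicate 3 107 and 128, and without CON replicate 2 286 and 102. Of the wider lists 3 genes passed, 0 when the pseudocount was 1 and 0 to 3 with 1 sample left out, with 0 without PND replicate 1 and 1 without PND replicate 3. The pseudocount of 1 shrinks differences of low genes by construction. For the other changes the cause was not tested.

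Samples with the same replicate number did not deviate together (correlations of −0.049, −0.451 and 0.027 for numbers 1, 2 and 3), so the numbers were not taken as pairs. With the replicate block 226 genes passed the cut-off, and Mfsd2a had an unadjusted p of 0.106 in limma. The estimated 6 to 56 fragments per sample limit Cldn5 and Mfsd2a most.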
